A study of Mus musculus with 14 samples.

Results

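The small leucine-rich proteoglycans are secreted matrix proteins with a core of leucine-rich repeats, to which chondroitin, dermatan or keratan sulphate chains may be attached. They were followed through the transcriptomes of sorted mouse forelimb bud cells by 10 genes given by name: Dcn, Bgn, Aspn, Lum, Kera, Fmod, Prelp, Omd, Epyc and Ogn. Each of the 10 had 1 row among the 24454 genes of the count table, found by its Entrez identifier, and no expression value was used to choose them. The table holds 14 poly(A)+ RNA-seq libraries of 5 populations sorted by FACS: 3 libraries of S9-JAG1+ limb bud mesenchymal progenitors (LMPs), 3 of S9-Pαhi LMPs, 3 of S9+Pαhi osteochondrogenic progenitors (OCPs), 3 of S9+COL2+ chondroblasts and 2 of S9-SCA-1+ cells, the last with the replicate numbers 2 and 3. S9 stands for the EGFP inserted at the Sox9 locus as a reporter of its expression, which all embryos carried, and Pαhi for high surface PDGFRα. Dead cells and cells positive for CD31, Ter119, CD45, EpCam, Gr1 or CD11b were gated out of every population. JAG1+ cells were Sox9- and SCA-1-, Pαhi LMPs were Sox9-, JAG1- and SCA-1-, and SCA-1+ cells were Sox9- and JAG1-. The chondroblasts carry the same Sox9+PDGFRαhi gate in the labels as the OCPs but came from E11.5 embryos, whereas the other populations are labelled E10.5, so in every comparison with chondroblasts cell state and stage cannot be told apart. Each library was made from the pooled forelimb buds of reporter embryos of both sexes on a mixed background, and while the study calls them biological replicates, nothing in the labels ties them to separate litters, so p-values measure the spread between these pools.

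Decorin (Dcn), biglycan (Bgn) and asporin (Aspn) form class I of the family, lumican (Lum), keratocan (Kera), fibromodulin (Fmod), PRELP and osteomodulin (Omd) class II, and epiphycan (Epyc) and osteoglycin (Ogn, also called mimecan) class III. Several of them bind fibrillar collagens and limit the width of fibrils, and decorin and biglycan also bind TGFβ. Keratocan and lumican are best known from the cornea, fibromodulin, decorin and biglycan from tendon, and epiphycan and PRELP from cartilage, while chondroblasts in the limb bud are the cells that begin to lay down the cartilage model of the skeleton.

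Of the 10 genes, 9 lie in 3 clusters of the mouse genome (GRCm38) and Bgn lies alone on the X chromosome (chrX:73483601-73495936). On chromosome 10, Dcn (chr10:97479500-97518163), Lum (chr10:97565501-97572703), Kera (chr10:97606962-97613688) and Epyc (chr10:97644068-97681908) follow each other on the plus strand within 202 kb, with gaps of 47.3, 34.3 and 30.4 kb. On chromosome 13, Aspn (chr13:49544443-49567565), Omd (chr13:49582462-49592612) and Ogn (chr13:49608015-49624501) span 80.1 kb on the plus strand, all within the span of Cenpp on the opposite strand. On chromosome 1, Prelp (chr1:133910304-133930102, minus strand) and Fmod (chr1:134037254-134048280, plus strand) are 107 kb apart. Reads were counted over exons, and the strand setting of the counting is not given in the sources used here. This bears on Epyc, for which 1041 annotated exon bases (40.6%) are also exons of the antisense lncRNA gene Gm10754, and on Prelp, for which 350 exon bases (9.68%) are shared with the antisense Gm15851, because without strand reads of such partners cannot be told apart. Gm10754 itself had 24 counts over the 14 libraries, with at most 11 in a library, against 205 for Epyc. Cenpp shares 7 exon bases (0.297%) with Aspn and 0 with Omd and Ogn.

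RefSeq promoter windows were at hand for 8 of the 10 genes; Dcn and Lum had no entry. The 250 bases before the start were searched on both strands for AACAAT and ACAAAG, forms of the core element that SOX proteins bind, for the E-box CANNTG and for TATAAA. Either SOX core stood in the windows of 4 of the 8 genes (Prelp, Kera, Epyc and Aspn) and in 24.0% of all 32851 promoter windows of this length. An E-box was found in windows of 5 of the 8 genes, against 66.2% of all windows, and TATAAA in those of Aspn and Ogn, against 12.4%. These shares are of single windows, whereas Epyc had 2 windows and was counted if either matched. Its E-boxes lay in window 2 only. The windows of Epyc (the first of its 2 starts) and Ogn are printed because these genes were among the 3 that differed most between OCPs and chondroblasts, and that of Prelp because it had 75 to 134 counts in OCP libraries and at most 1 in any LMP library. The start used for Prelp lies within the span of the gene given above. Sequence runs 5′ to 3′ on the strand of the gene in build GRCm38.p6, with SOX cores (written ATTGTT where AACAAT lies on the other strand) and TATAAA (or TTTATA) in capitals, and in Ogn a TTTATA and a TATAAA overlap.
Epyc, chr10:97643818-97644067, plus strand: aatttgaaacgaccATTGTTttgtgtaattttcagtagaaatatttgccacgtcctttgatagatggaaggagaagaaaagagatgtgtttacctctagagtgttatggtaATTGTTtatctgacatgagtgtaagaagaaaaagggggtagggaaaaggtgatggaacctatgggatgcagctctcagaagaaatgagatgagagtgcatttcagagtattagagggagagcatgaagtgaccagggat
Ogn, chr13:49607765-49608014, plus strand: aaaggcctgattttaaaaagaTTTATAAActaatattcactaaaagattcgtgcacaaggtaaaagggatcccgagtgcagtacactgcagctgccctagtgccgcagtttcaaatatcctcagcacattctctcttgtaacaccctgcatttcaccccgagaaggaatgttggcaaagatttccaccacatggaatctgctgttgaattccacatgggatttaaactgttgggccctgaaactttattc
Prelp, chr1:133921402-133921651, minus strand: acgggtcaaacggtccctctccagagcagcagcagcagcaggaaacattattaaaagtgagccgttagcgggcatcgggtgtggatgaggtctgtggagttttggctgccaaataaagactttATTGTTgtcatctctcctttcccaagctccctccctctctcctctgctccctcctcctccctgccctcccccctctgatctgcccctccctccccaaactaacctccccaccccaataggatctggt
The printed window of Epyc held 2 SOX cores, that of Prelp 1 and that of Ogn 0. Kera, not printed because all 250 bases of its window (chr10:97606955-97607204) lie in an annotated exon of the gene, held 3, and the windows of Fmod, Omd and Bgn held 0. These are matches of letters and were not tested as binding sites.

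Library totals ran from 20316583 to 29162751 counts. Levels are given as CPM, the count relative to a library total scaled with TMM, and compared between genes only per kilobase of exon. A level of 3 counts, taken as the lowest that can be told from absence, was 0.101 to 0.149 CPM depending on the library; this floor and the intervals below cover counting error only. Of the sorting genes, 3 followed the labels: Sox9 averaged 437±7.03 CPM in OCPs and 536±111 in chondroblasts (mean±s.d., n=3) against at most 65.5 in any other library, Jag1 296±67.9 in S9-JAG1+ LMPs, and Ly6a, which codes for SCA-1, 3.23±0.183 in S9-SCA-1+ cells (n=2) against at most 0.406 elsewhere. Jag1 was not particular to the JAG1+ gate, with 119±17.5 CPM in chondroblasts. Pdgfra RNA, for the surface protein of the Pαhi gate, was lower in S9-Pαhi LMPs (443±85.0 CPM) than in OCPs (718.5±44.8) and chondroblasts (864±88.4). It averaged 247±1.12 CPM in S9-JAG1+ LMPs. In S9-SCA-1+ cells, which the study sorted from PDGFRα-positive cells, it averaged 34.4±14.7 CPM (n=2). The 4 myogenic markers Pax3, Lbx1, Myf5 and Met summed to 1466 to 1472 CPM in S9-SCA-1+ cells and to at most 9.68 CPM in the other libraries. Red blood cell markers summed to 90.6 CPM in 1 S9-SCA-1+ library and 2446 in the other, against at most 52.9 elsewhere.

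Together the 10 genes made up a small part of the transcriptome, 0.0166 to 0.0220% of the counts in chondroblasts and 0.00116 to 0.00436% in the other libraries. Summed per kilobase, the family stood at 83.0±11.9 CPM per kb in chondroblasts, 17.2±1.30 in S9-Pαhi LMPs, 16.4±1.97 in S9-JAG1+ LMPs, 14.0±3.66 in OCPs (n=3 each) and 5.01±0.0553 in S9-SCA-1+ cells (n=2). The 3 chondroblast libraries lay between 69.5 and 91.9 CPM per kb, above all 11 others, and both S9-SCA-1+ libraries lay below all others. The ranges of both LMP populations and of the OCPs overlapped. In bulk libraries such as these, fewer cells of a type and less RNA per cell cannot be told apart.

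The makeup of the family differed as well. Bgn supplied 84.3±6.33% of the summed CPM per kb in S9-Pαhi LMPs, 78.3±4.17% in S9-JAG1+ LMPs and 76.5±1.67% in S9-SCA-1+ cells, but 41.7±8.64% in OCPs and 21.5±6.34% in chondroblasts. Lum took 16.7±1.65% in S9-JAG1+ LMPs and 11.3±4.75% in S9-Pαhi LMPs, against 40.6±7.60% in OCPs and 41.2±9.41% in chondroblasts. Prelp had its largest mean share in OCPs, with 8.21±1.01%. In chondroblasts Kera (11.3±2.13%), Ogn (11.1±1.66%) and Dcn (6.61±0.0777%) came next after Lum and Bgn, whereas Kera and Epyc were at 0 counts in all 3 S9-JAG1+ libraries.

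**Figure D1:**
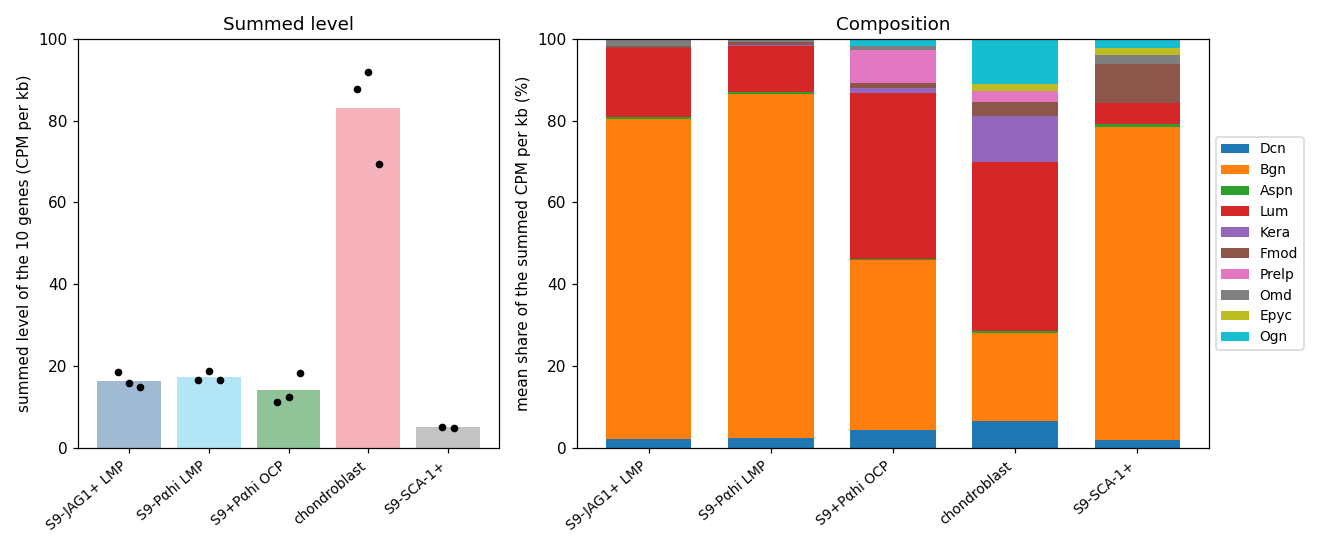
Left, the level of the 10 genes summed per kilobase of exon (CPM per kb), with bars for the mean of each population and points for single libraries; right, the mean share of each gene in that sum (%). Chondroblasts reached 69.5 to 91.9 CPM per kb, and Bgn, with 76.5 to 84.3% of the sum in both LMP populations and S9-SCA-1+ cells, took 21.5% there.

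Against the mean of the other 4 populations, 8 of the 10 genes were higher in chondroblasts (Dcn, Aspn, Lum, Kera, Fmod, Prelp, Epyc and Ogn) and 0 lower. A call, here and below, needed a Benjamini-Hochberg adjusted p no larger than 0.1 in the quasi-likelihood test of edgeR together with a log2 fold change of 1.2 or more in either direction. Of all 15125 tested genes, 11% were called higher and 1.71% lower in chondroblasts. For the same 8 genes all 3 chondroblast libraries exceeded the 11 others, as they did for 13.3% of the tested genes. The median log2 fold change of the 10 was 4.25, and 4.12 with Kera, Prelp and Epyc set to 3 counts in populations at or under that level, against 0.05 over all tested genes. Bgn (log2 fold change 1.12±0.11, mean±s.e., adjusted p=1.06e-06) passed the p but not the fold limit, which it passed without chondroblast replicate 1 (1.22), and Omd (0.43±0.43, adjusted p=0.406) passed neither. All 10 genes passed the filter on low counts. Epyc and Aspn exceeded 3 counts in every library of the chondroblasts alone, and Kera, Prelp and Ogn in those of chondroblasts and OCPs alone. The filter asks for more than 3 counts, but only in some libraries. Epyc, Aspn, Kera, Prelp and Ogn passed it through populations in which they were high. Omd passed it through S9-JAG1+ and chondroblast libraries, where it reached its highest count of 13.

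**Figure D2:**
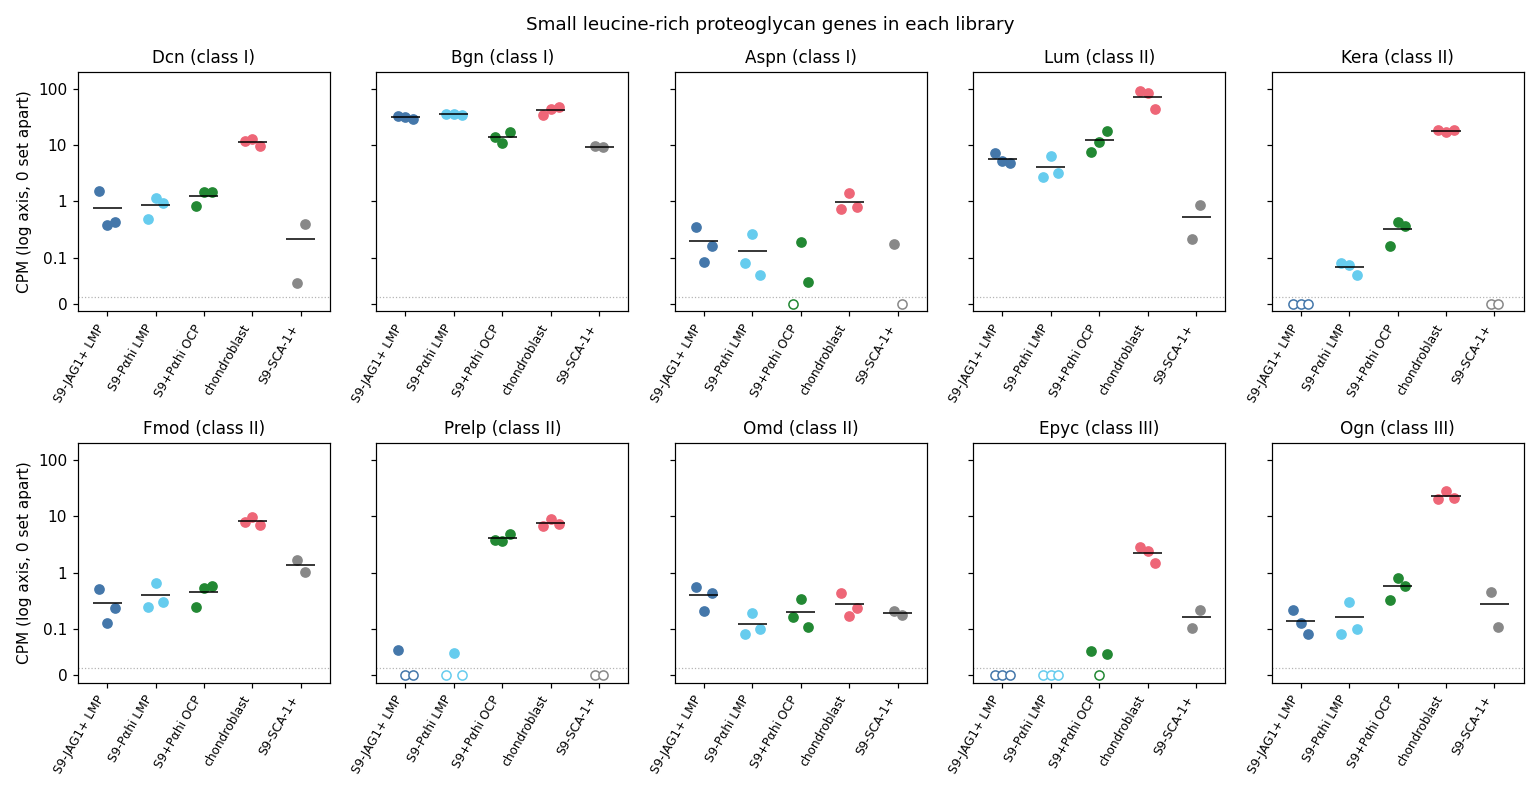
CPM of each of the 10 genes in each of the 14 libraries on a log axis, with libraries at 0 counts drawn as open circles on a separate level and the mean of a population as a line where none of its libraries is at 0. Chondroblast points lie above all others for 8 genes, and not for Bgn and Omd.

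The class I genes followed different courses. Decorin, which binds collagen I and TGFβ, stood at 12.0, 12.9 and 9.66 CPM in the 3 chondroblast libraries, at 0.811, 1.47 and 1.48 in OCPs, at 0.488, 1.13 and 0.947 in S9-Pαhi LMPs, at 1.5, 0.377 and 0.436 in S9-JAG1+ LMPs and at 0.0350 and 0.392 in S9-SCA-1+ cells. Only the chondroblasts stood clear of the rest, and OCP and LMP ranges overlapped. Dcn was 9.19-fold higher in mean CPM in chondroblasts than in OCPs (log2 fold change 3.20±0.45, adjusted p=0.000181), and none of the 3 pairwise differences among OCPs and LMPs was called (OCPs against S9-JAG1+ LMPs 0.71±0.52, adjusted p=0.297), although without S9-JAG1+ replicate 1, the highest of that population, OCPs were higher than S9-JAG1+ LMPs (1.61, adjusted p=0.0295). The S9-SCA-1+ cells were lower than OCPs (-2.54±0.71, adjusted p=0.0124), S9-Pαhi LMPs (-1.99±0.74, adjusted p=0.068) and S9-JAG1+ LMPs (-1.83±0.75, adjusted p=0.0958). These calls were lost without S9-SCA-1+ replicate 2, the library with 1 Dcn count, where the first was -1.67 (adjusted p=0.123), the second was lost as well without S9-Pαhi replicate 2 or 3 (adjusted p=0.194 and 0.116), and the last without any 1 of 8 libraries.

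Biglycan had the highest level per kilobase of the 10 in both LMP populations and in S9-SCA-1+ cells, while in OCPs Bgn (5.74±1.26 CPM per kb) and Lum (5.85±2.44) did not differ beyond their spread. Bgn stood at 33.2, 31.2 and 28.7 CPM in S9-JAG1+ LMPs, at 35.6, 35.0 and 34.6 in S9-Pαhi LMPs, at 14.2, 10.7 and 16.9 in OCPs, at 34.8, 43.6 and 48.1 in chondroblasts and at 9.51 and 9.08 in S9-SCA-1+ cells. OCP libraries were thus below all LMP and chondroblast libraries and above both S9-SCA-1+ libraries, while the lowest chondroblast library lay within the range of the S9-Pαhi LMPs. Bgn fell by 1.33±0.15 on the log2 scale from S9-Pαhi LMPs to OCPs (adjusted p=4.97e-05) and was higher in chondroblasts than in OCPs by 1.59±0.15 (3.03-fold, adjusted p=6.11e-06). Without OCP replicate 2 the former was -1.19, short of the fold limit (adjusted p=5.13e-05). Against S9-JAG1+ LMPs the OCP value was -1.15±0.15 (adjusted p=2.86e-05), short of the fold limit, and it passed it without OCP replicate 3 (-1.33) or S9-JAG1+ replicate 3 (-1.21). Chondroblasts and S9-Pαhi LMPs differed by 0.27±0.14 (adjusted p=0.135), and both LMP populations by 0.18±0.14 (adjusted p=0.426). Bgn was the member for which chondroblasts did not stand above the LMPs by the fold limit although they stood well above the OCPs.

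Asporin, which inhibits TGFβ signals in cartilage, was low throughout, with 22, 41 and 20 counts in chondroblasts and 0 to 8 in the other 11 libraries. It stood at 0.740, 1.40 and 0.785 CPM in chondroblasts and averaged 0.0755±0.101 CPM in OCPs (n=3). Aspn was higher in chondroblasts than in OCPs (3.73±0.83, adjusted p=0.00492) and than in S9-JAG1+ LMPs (2.31±0.70, adjusted p=0.011), with a ratio of mean CPM of 5.01 for the latter pair. In the other populations its levels were near or under the floor, and differences between them were not detectable at this depth, with the exception that OCPs were called lower than S9-JAG1+ LMPs once OCP replicate 2 was left out (adjusted p=0.0882), on 1 count in the remaining OCP libraries.

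Among class II genes, lumican had the highest level per kilobase in chondroblasts, 34.9±11.7 CPM per kb against 17.4±2.80 for Bgn (n=3). Lum stood at 89.6, 83.0 and 44.5 CPM in chondroblasts, at 7.54, 11.3 and 17.6 in OCPs, at 7.19, 5.24 and 4.80 in S9-JAG1+ LMPs, at 2.72, 6.51 and 3.14 in S9-Pαhi LMPs and at 0.210 and 0.855 in S9-SCA-1+ cells. Each OCP library was higher than each LMP library, chondroblast libraries were higher still, and the S9-SCA-1+ libraries were the lowest of all. Lum was 5.97-fold higher in chondroblasts than in OCPs (log2 fold change 2.57±0.37, adjusted p=0.000212) and higher in OCPs than in S9-Pαhi LMPs (1.54±0.40, adjusted p=0.0209). The OCP call was lost without OCP replicate 3, the highest of that population (1.14, adjusted p=0.102). OCPs against S9-JAG1+ LMPs gave 1.09±0.38 (adjusted p=0.0366), under the fold limit, and passed it without OCP replicate 1 (1.34) or S9-JAG1+ replicate 1 (1.28). In S9-SCA-1+ cells Lum was lower than in each other population, with log2 fold changes of -2.96±0.64 against S9-Pαhi LMPs (adjusted p=0.00335), -3.42±0.63 against S9-JAG1+ LMPs (adjusted p=0.000865) and -4.51±0.61 against OCPs (adjusted p=5.49e-05).

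Keratocan, a protein of the corneal stroma, had 549, 493 and 469 counts in chondroblasts, 4, 9 and 10 in OCPs, 2, 2 and 1 in S9-Pαhi LMPs, and 0 in all 3 S9-JAG1+ and both S9-SCA-1+ libraries. The chondroblast level of 17.9±0.907 CPM (n=3) was 56.5-fold that of OCPs (log2 fold change 5.81±0.26, adjusted p=2.54e-07) and at least 139-fold higher than 3 counts in an S9-JAG1+ library would give. OCPs in turn were at least 2.47-fold higher than that floor in S9-JAG1+ LMPs (adjusted p=0.000198), and they were called higher than S9-Pαhi LMPs (adjusted p=0.0183), where no fold is given because all 3 libraries were under the floor. The call of Kera as higher in S9-Pαhi than in S9-JAG1+ LMPs compared 5 counts with 0, all at or under the floor, so no fold is given, and it was lost without S9-JAG1+ replicate 2 or 3 (adjusted p=0.106 and 0.111).

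Fibromodulin, which shares collagen-binding sites with lumican, departed from this order in the S9-SCA-1+ cells. Its levels were 7.97, 9.79 and 7.07 CPM in chondroblasts, 1.64 and 1.03 in S9-SCA-1+ cells, 0.243, 0.523 and 0.579 in OCPs, 0.244, 0.639 and 0.299 in S9-Pαhi LMPs and 0.514, 0.126 and 0.238 in S9-JAG1+ LMPs. Both S9-SCA-1+ libraries thus lay above all OCP and LMP libraries and below all chondroblast libraries. Fmod was 18.5-fold higher in chondroblasts than in OCPs (4.19±0.40, adjusted p=7.31e-06), and the difference between OCPs and S9-Pαhi LMPs was 0.16±0.50 (adjusted p=0.861). In S9-SCA-1+ cells Fmod exceeded its level in S9-JAG1+ LMPs (2.19±0.49, adjusted p=0.00381), S9-Pαhi LMPs (1.72±0.46, adjusted p=0.014) and OCPs (1.57±0.46, adjusted p=0.015). Without S9-SCA-1+ replicate 2 the last pair of calls was lost (1.35, adjusted p=0.144, and 1.19, adjusted p=0.145). The myogenic and red blood cell markers given above also set both S9-SCA-1+ libraries apart from those of OCPs and LMPs. In S9-SCA-1+ replicate 2 the red blood cell markers summed to 90.6 CPM and Fmod was at 1.64 CPM. In replicate 3 these markers summed to 2446 CPM and Fmod was at 1.03 CPM. The part of either marker set in the Fmod difference was not tested.

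PRELP, which anchors basement membranes to the underlying matrix, was at 0 or 1 count in every library of the Sox9- populations and well above that in both Sox9+ populations. It had 94, 75 and 134 counts in OCPs (3.81, 3.57 and 4.85 CPM) and 202, 260 and 183 in chondroblasts (6.79, 8.90 and 7.19 CPM), against 1 count in 1 library of each LMP population and 0 in the other 4 LMP and both S9-SCA-1+ libraries. The ratio of summed counts, relative to library size, of OCPs to S9-Pαhi LMPs was 294, with an exact 95% counting interval of 52.4 to 11667, and that to S9-JAG1+ LMPs was 299 (53.3 to 11862), both called (adjusted p=1.09e-06 and 1.19e-07). OCPs were at least 38.1-fold higher than 3 counts in an S9-SCA-1+ library. From OCPs to chondroblasts Prelp differed by 0.90±0.24 on the log2 scale (1.87-fold, adjusted p=0.0151), short of the fold limit, although all 3 chondroblast libraries exceeded all 3 OCP libraries. This step was smaller than that of each other member but Omd.

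Osteomodulin, named from mineralised bone, had 2 to 13 counts in each library and no population in which all libraries stood apart. The means were 0.401±0.176 CPM in S9-JAG1+ LMPs, 0.281±0.139 in chondroblasts, 0.201±0.117 in OCPs, 0.194±0.0225 in S9-SCA-1+ cells and 0.123±0.0571 in S9-Pαhi LMPs. The difference between chondroblasts and OCPs was 0.53±0.56 (adjusted p=0.514). Its only call among the 15 comparisons, lower in S9-Pαhi than in S9-JAG1+ LMPs (-1.64±0.59, adjusted p=0.0632), was lost without replicate 1 or 3 of either population (adjusted p from 0.14 to 0.195). Single libraries left out also brought Omd calls in S9-JAG1+ LMPs compared with the other populations' mean (higher without S9-JAG1+ replicate 2, 1.37, adjusted p=0.0287), in OCPs against S9-JAG1+ LMPs (lower without OCP replicate 2 or S9-JAG1+ replicate 2, adjusted p=0.0614 and 0.0753) and in chondroblasts against S9-Pαhi LMPs (higher without S9-Pαhi replicate 2, adjusted p=0.0991). Omd lies between Aspn and Ogn, both of which were higher in chondroblasts.

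The class III genes were low outside the chondroblasts. Epiphycan, a proteoglycan of growth cartilage, had 84, 72 and 38 counts there (2.83, 2.46 and 1.49 CPM), 1, 0 and 1 in OCPs, 3 and 6 in S9-SCA-1+ cells and 0 in all 6 LMP libraries. Relative to library size, the summed counts of chondroblasts were 84.3-fold those of OCPs, with an exact 95% counting interval of 23.0 to 701 (adjusted p=8.21e-05), and at least 17.6-fold above 3 counts in an S9-JAG1+ library. Epyc was also called above OCPs, S9-Pαhi LMPs, S9-JAG1+ LMPs and the mean of the others in S9-SCA-1+ cells, on 9 counts, and apart from that against S9-JAG1+ LMPs these calls were lost without S9-SCA-1+ replicate 3 (adjusted p=0.324, 0.107 and 0.2). That against OCPs was lost as well without OCP replicate 2 or 3 (adjusted p=0.148 and 0.115).

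Osteoglycin had a low but detectable level in most of the other libraries. Its libraries stood at 20.4, 28.3 and 21.1 CPM in chondroblasts, 0.325, 0.808 and 0.579 in OCPs, 0.0813, 0.301 and 0.0996 in S9-Pαhi LMPs, 0.214, 0.126 and 0.0793 in S9-JAG1+ LMPs and 0.455 and 0.107 in S9-SCA-1+ cells. Every OCP library was above every LMP library, but 1 S9-SCA-1+ library was within the OCP range. Ogn was 40.8-fold higher in chondroblasts than in OCPs (5.36±0.35, adjusted p=3.81e-07), and higher in OCPs than in S9-JAG1+ LMPs (4.08-fold, 1.99±0.59, adjusted p=0.0147). Against S9-Pαhi LMPs the OCP call (3.55-fold, 1.72±0.56, adjusted p=0.0609) was lost without OCP replicate 2 or 3, or S9-Pαhi replicate 1 or 3 (adjusted p from 0.128 to 0.189).

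Between chondroblasts and OCPs, the pair that shares the labelled gate, 8 of the 10 genes were higher in chondroblasts (Dcn, Bgn, Aspn, Lum, Kera, Fmod, Epyc and Ogn) and 0 lower, against 6.6% and 1.16% of all tested genes (7.77% in either direction). The median log2 fold change of the 10 was 3.46, and -0.02 over all tested genes. Against S9-JAG1+ LMPs 8 were higher and 0 lower in chondroblasts (15.2% and 4.17% of tested genes, 19.4% in all) and against S9-Pαhi LMPs also 8 and 0 (10.8% and 1.83%), in both cases all but Bgn and Omd. These comparisons share the chondroblast libraries, and with any 1 library left out each count was 8 or 9. The ratios to OCPs did not fall evenly along the clusters, as Dcn and Lum stood at 9.19 and 5.97 and their neighbours Kera and Epyc at 56.5 and 84.3, and Omd at 1.40 between Aspn at 12.9 and Ogn at 40.8. The ratio of Epyc rests on 2 counts over the OCP libraries (counting interval 23.0 to 701, which includes that of Kera). That of Aspn rests on 5 OCP counts and that of Omd on 24 counts against 14, so these ratios are imprecise.

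**Figure D3:**
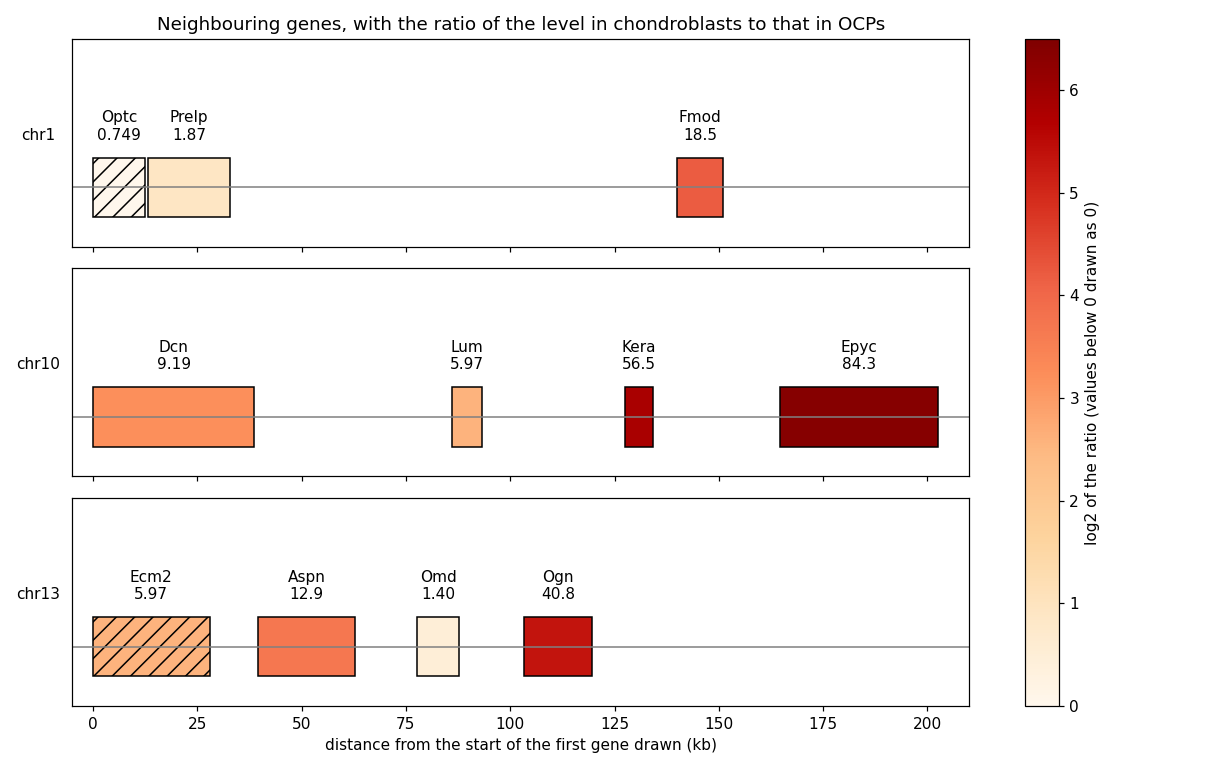
Span of the genes in the 3 clusters, as distance in kb from the start of the first gene drawn, with the ratio of mean CPM in chondroblasts to OCPs (for Epyc the ratio of summed counts, each relative to the summed library sizes) above each and its log2 as colour; hatched boxes are neighbours outside the 10. On chromosome 1 the ratio is 1.87 for Prelp and 18.5 for Fmod, on chromosome 10 it runs from 5.97 (Lum) to 84.3 (Epyc), and on chromosome 13 from 1.40 (Omd) to 40.8 (Ogn). The ratios of Epyc, Aspn and Omd rest on 2, 5 and 14 counts over the OCP libraries.

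Between OCPs and S9-Pαhi LMPs, 4 genes were higher in OCPs (Lum, Kera, Prelp and Ogn) and 1 lower (Bgn), against 3.48% and 1.36% of tested genes (4.84% in all), with 3 to 5 calls when single libraries were left out. Between OCPs and S9-JAG1+ LMPs, Kera, Prelp and Ogn were higher and 0 lower (9.03% and 3.46% of tested genes), with 3 to 5 calls when single libraries were left out, 5 without OCP replicate 2 or S9-JAG1+ replicate 1. The 2 LMP populations differed by 1 call each way, Kera and Omd (4.42% and 2.58% of tested genes), both on few counts as described above. For Prelp the test set 303 counts over the OCP libraries against 1 count over the libraries of either LMP population.

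**Figure D4:**
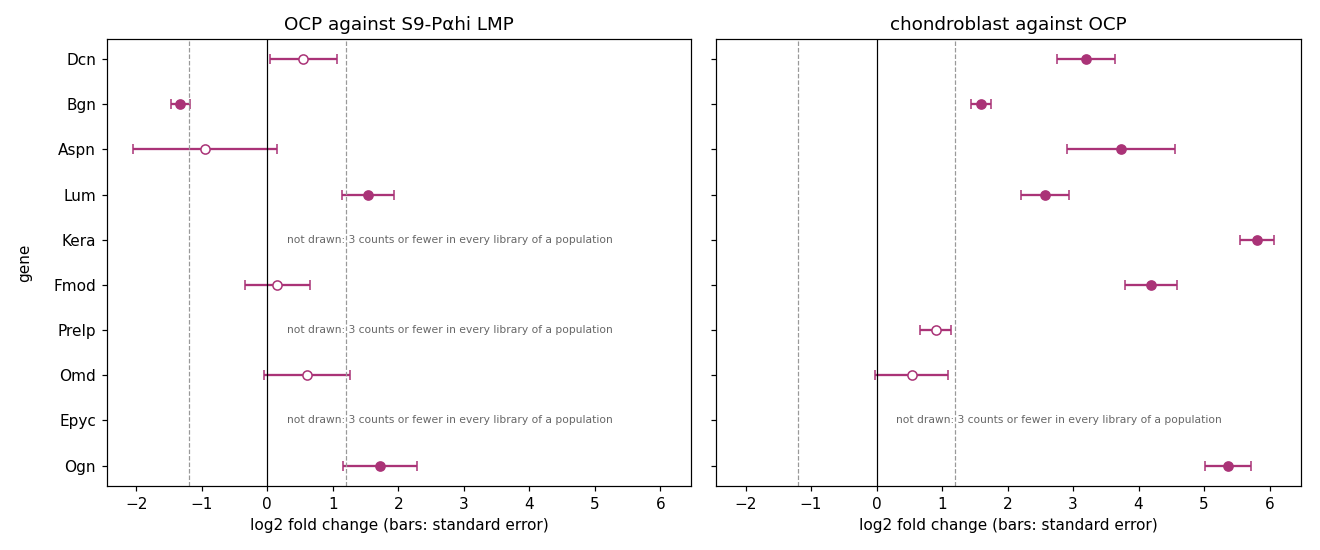
Log2 fold change of each gene from S9-Pαhi LMPs to OCPs (left) and from OCPs to chondroblasts (right), with bars for the standard error, filled points for calls and dashed lines at the fold limit of 1.2; genes at 3 counts or fewer in every library of a compared population are not drawn. Bgn is at -1.33 on the left and 1.59 on the right, and Ogn at 1.72 and 5.36.

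S9-SCA-1+ cells were lower than the mean of the others for 5 of the 10 genes (Dcn, Bgn, Lum, Prelp and Ogn) and higher for 1 (Epyc), against 6.8% and 4.46% of tested genes. Bgn and Lum were below all 12 other libraries in both S9-SCA-1+ libraries, as 10.1% of tested genes were. Bgn was lower there than in S9-JAG1+ LMPs (-1.74±0.17, adjusted p=2.94e-06), S9-Pαhi LMPs (-1.91±0.17, adjusted p=1.49e-06) and chondroblasts (-2.18±0.17, adjusted p=2.51e-07), while the value against OCPs (-0.59±0.17, adjusted p=0.0148) was under the fold limit. The Prelp call was lost without S9-Pαhi replicate 2 or S9-JAG1+ replicate 1, the 1 library of each population with a Prelp count, and the Ogn call without S9-SCA-1+ replicate 3 (-0.72, adjusted p=0.372) or S9-Pαhi replicate 2 (-1.18, adjusted p=0.0878). By pairs, 2 genes were higher and 3 lower than in S9-JAG1+ LMPs (6.53% and 4.91% of tested genes), 2 and 4 than in S9-Pαhi LMPs (4.96% and 5.58%), 2 and 4 than in OCPs (4.73% and 8.03%), and 0 and 9 than in chondroblasts (5.56% and 13.9%, 19.4% in all), with all but Omd lower in the last. The 4 lower than in S9-Pαhi LMPs include Kera, at 5 counts against 0, which was lost without S9-Pαhi replicate 1 or 2 or either S9-SCA-1+ library. Without S9-SCA-1+ replicate 2 the 6 calls against S9-Pαhi LMPs came down to 3 (Bgn, Lum and Epyc).

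S9-JAG1+ LMPs (0 higher, 2 lower) and S9-Pαhi LMPs (0 higher, 2 lower) had Fmod and Ogn below the mean of the others (2.88% and 7.7% of tested genes for the former, 1.53% and 2.31% for the latter, 3.84% in all), the Fmod call in S9-Pαhi LMPs being lost without replicate 1 or 3 of that population (adjusted p=0.147 and 0.119). OCPs had Kera and Prelp above the mean of the others and Fmod below it (3.37% and 1.64% of tested genes), and the Fmod value passed the fold limit by little (-1.24) and was short of it without OCP replicate 1 (-0.95), S9-Pαhi replicate 2, S9-JAG1+ replicate 1 or S9-SCA-1+ replicate 2. Lum was called higher in OCPs than in the mean of the others without OCP replicate 1, S9-Pαhi replicate 2 or S9-SCA-1+ replicate 3 (1.27 to 1.47, against 1.14±0.31 with all libraries). With a mean over populations in which a gene is at 0, fitted fold changes of Kera, Prelp and Epyc depend on the prior and are not given.

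Across the 14 libraries, log2 CPM of the 10 genes were compared in pairs as a description, on points that share populations and depth. Kera and Ogn had the highest Pearson correlation (r=0.97), followed by Fmod and Epyc (0.95) and Dcn and Lum (0.94). Bgn reached at most 0.59 with any other member, with Aspn, and Omd at most 0.44, also with Aspn. Of the 2 genes with a mean of at least 1 log2 CPM, Bgn was most like Cox4i2 (r=0.99), Hand2os1 (0.94) and Cx3cl1 (0.93), and Lum was most like Tnfaip8 (0.97), Sox6 (0.97) and Phyh (0.96) among all tested genes.

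Other leucine-rich matrix proteins were followed by 8 genes. Of these, 6 were higher in chondroblasts than in the mean of the others and 0 lower, against 11% and 1.71% of tested genes. Their median log2 fold change was 1.43. Against OCPs 4 of the 8 were higher and 0 lower (median 1.19), beside 6.6% and 1.16% of tested genes. Podn, which codes for podocan, stood at 2.43±0.619 CPM in chondroblasts against 0.179±0.156 in OCPs (3.74±0.57, adjusted p=0.000352), and Chadl at 8.29±1.42 against 3.58±0.684 (1.21±0.22, adjusted p=0.00119). Ecm2, the neighbour of Aspn, was higher in chondroblasts than in OCPs (2.70±0.80, adjusted p=0.0239). Optc, which codes for opticin of class III and is the neighbour of Prelp, went another way, with 1.45±0.688 CPM in S9-JAG1+ LMPs against means of 0.0706 to 0.238 in the other populations (3.23±0.36 against the mean of the others, adjusted p=7.78e-06). Tsku, at 23.7 to 27.6 CPM on average in every population, differed by 0.09±0.09 between chondroblasts and the mean of the others (adjusted p=0.409).

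Of 17 genes for matrix proteins and growth factors that bind these proteoglycans, 8 were higher in chondroblasts than in the mean of the others and 0 lower (median log2 fold change 1.17). The shares over all tested genes were 11% and 1.71%. In S9-SCA-1+ cells 11 of the 17 were lower and 0 higher, against 6.8% and 4.46% of tested genes. From OCPs to chondroblasts 4 of the 17 were higher and 0 lower (6.6% and 1.16% of tested genes), with a median of 0.62 against 3.46 for the proteoglycans. Those were Col6a1 (1.60±0.16, adjusted p=8.48e-06) and Col6a2 (1.45±0.12, adjusted p=3.34e-06), for chains of collagen VI, Eln for elastin (1.29±0.16, adjusted p=6.46e-05), and Col14a1 (2.01±0.57, adjusted p=0.0191). Col1a1, Col2a1 and Col3a1, for fibrillar collagens, were not called, with 0.62±0.20 (adjusted p=0.0326), 0.64±0.23 (adjusted p=0.0534) and -0.14±0.19 (adjusted p=0.616). Col2a1 averaged 990±271 CPM in OCPs and 1537±315 in chondroblasts (n=3 each).

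Of 12 genes listed for the attachment of the sugar chains, 11 were found in the table and tested. Beside the 6.6% and 1.16% of all tested genes called higher and lower, 1 of the 11 was higher in chondroblasts than in OCPs and 0 lower, with a median log2 fold change of 0.21. That gene was Csgalnact1, which starts chondroitin chains, at 1.88±0.510 CPM in chondroblasts against 0.0920±0.0905 in OCPs (4.24±0.68, adjusted p=0.000503). Xylt1, which adds the first xylose to the core protein, differed by 0.21±0.16 (adjusted p=0.354) and Dse, which turns chondroitin into dermatan sulphate, by 0.05±0.09 (adjusted p=0.743).

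Of 13 tendon and connective tissue genes, 12 were tested. Beside the 6.6% and 1.16% of all tested genes, 1 of the 12 was higher in chondroblasts than in OCPs and 0 lower (median 0.20). That was Tnc, for tenascin-C, at 96.2±16.2 CPM against 5.23±2.33 (4.21±0.60, adjusted p=0.000206). Scx, for the tendon transcription factor scleraxis, stood at 94.8±5.92 CPM in chondroblasts and 99.4 to 118 in OCPs (-0.23±0.14, adjusted p=0.244), and Tnmd, for the tendon protein tenomodulin, was at 3 counts or fewer in each library of OCPs, S9-Pαhi LMPs and S9-SCA-1+ cells and averaged 0.103±0.115 CPM in chondroblasts.

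Marker genes of other cell types were set beside the chondroblast results. Of all tested genes, 6.6% were called higher in chondroblasts than in OCPs and 1.16% lower. Of 6 cartilage markers, 4 were higher in chondroblasts than in OCPs, and their sum was 444 to 737 CPM against 219 to 284. The sum of 5 pericyte and smooth muscle markers was 39.2 to 61.2 CPM in chondroblasts and 18.7 to 27.0 in OCPs (1 of 4 tested higher), that of 5 Schwann cell precursor and neural crest markers 21.1 to 29.2 and 9.61 to 21.4 (2 of 5 higher), and that of 6 ectoderm markers 19.2 to 22.7 and 12.5 to 14.3 (1 of 4 tested higher). Most of the pericyte and smooth muscle sum was Cspg4 alone, at 45.9±12.1 CPM in chondroblasts and 20.8±4.44 in OCPs. On average Rgs5 (1.66 against 1.06) and Acta2 (1.74 against 0.17) were also higher in chondroblasts. Des (0.679 against 1.35) and Myh11 (0.299 against 0.329) were lower there. The 5 fibroblast-like connective tissue markers summed to 2.67 to 8.64 CPM in chondroblasts and 1.62 to 3.52 in OCPs (1 of 3 tested higher), 5 endothelial markers to 3.22 to 3.33 and 2.46 to 4.37, and 5 leukocyte markers to at most 0.314 CPM in either. Red blood cell markers summed to 29.7 to 52.9 CPM in chondroblasts and 7.56 to 43.8 in OCPs, with 0 of 5 called. The part of these cells in the proteoglycan differences was not tested.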

How the data were processed

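RNA-seq was done by the authors on 14 libraries of 5 sorted mouse forelimb bud populations. The deposited values are whole-number read counts per gene, not normalised, with a gene length in bases; per the labels and the study's methods, single-end reads were aligned to mm10 with STAR, with 1 hit kept for a read that maps to several places, and counted with qCount where they start in a RefSeq mRNA exon. Of 24454 Entrez identifiers 24374 were matched to symbols, and the other 80 held 0.358% of counts. In R 4.3.3, edgeR 4.0.16 was used with filterByExpr by population (15125 genes), TMM scaling and a quasi-likelihood fit of 1 mean per population to all 14 libraries. Benjamini-Hochberg adjustment covered every tested gene, and calls needed both limits given in the text. Standard errors were taken as the fold change over the root of the F statistic. Log2 CPM had a prior count of 2. The 10 genes are named whatever their values. Each of them with a mean of at least 1 log2 CPM is followed by its 3 most correlated genes, and fixed lists are described by their counts. The members and lists were chosen with earlier results of these data known. On simulated data (14687 genes, chondroblasts against OCPs), 100 of 100 genes changed 4-fold and 10 of 100 changed 2-fold were called, with 2 false calls. The changed genes all averaged above 1 CPM and every gene had the same simulated spread. The shares called were therefore not measured for members at lower levels. Replicate numbers were not used as pairs: of 26 pairs of same-numbered libraries, 4 had deviations correlated above 0.1 (range -0.18 to 0.31). Alternatives were DESeq2 1.42.0 size factors or Wald test, no filter, a replicate block, a fit without S9-SCA-1+ cells and each library left out in turn.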

Additional observations from a re-analysis of the deposited data

How the results depend on the processing

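The counts of called proteoglycan genes were recomputed for 15 comparisons under 5 other settings and with each of 14 libraries left out, and 263 of 280 such counts stayed within 1.5 times the reported one. The exceptions concern the LMPs, the OCPs and the S9-SCA-1+ cells. For S9-JAG1+ LMPs against the other populations' mean (2 calls), the DESeq2 Wald test called 5 (1610 of all 15121 genes) and the fit without the S9-SCA-1+ population 6 (1701 of 14668). For S9-Pαhi LMPs against the mean of the others (2 calls), they called 4 and 5 (623 of all 15121 genes and 544 of 14668), and single libraries left out gave 1 to 3. For S9-Pαhi against S9-JAG1+ LMPs (2 calls) the Wald test called 1, and single libraries left out gave 0 to 2. OCPs against S9-JAG1+ LMPs (3 calls) gave 3 to 5 when a library was left out, OCPs against S9-Pαhi LMPs (5 calls) 3 to 5, and S9-SCA-1+ cells against S9-Pαhi LMPs (6 calls) 3 to 6. The fit without S9-SCA-1+ cells compares with the mean of 3 instead of 4 populations; for the other changes the cause was not tested. Of 687 values of single genes, 637 kept direction and call, 21 lost and 27 gained a call, and 2 reversed, both uncalled: with single libraries left out, Lum in S9-JAG1+ LMPs ran from -0.41 to 0.11 and Dcn in S9-Pαhi LMPs from -0.82 to 0.074, each against the other populations' mean. The fit with a replicate block gave the same count in 14 of 15 comparisons and lost Dcn in S9-SCA-1+ cells against S9-JAG1+ LMPs (-1.80, adjusted p=0.129). Unscaled library totals moved mean CPM by at most 1.06-fold. Depth limits Aspn, Omd, Epyc and Kera outside chondroblasts, where every library had under 14 counts of each. It limits Omd in chondroblasts too, where the libraries had 5 to 13 counts.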
